A study of Sinohyriopsis cumingii with 10 samples.

Results

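In the forming pearl sac of the freshwater mussel Sinohyriopsis cumingii, 49 assembled contigs stood lower after the first 6 h from implantation. Each lay lower in every library from 12 h to 30 d than in any library from 0 to 6 h. They were chosen from the measured values themselves. CPM is a contig's reads expressed per 1000000 reads of its library, and each level was taken as log2(CPM + 1). The score of a contig was its lowest level at 0, 2 and 6 h minus its highest level at 12, 24, 48 and 96 h and 7, 14 and 30 d. A score above 0.5 was required, which is a ratio of 1.41 on the CPM + 1 scale. A contig also needed at least 5 CPM at 0, 2 and 6 h, a mean under 1000 CPM, and a mean level at 2 and 6 h less than 1 log2 unit above 0 h. Of 211508 contigs readable in all files, 6151 met the limits on level and are called eligible below, and 49 of these (0.797%) had a score above 0.5. The condition on 2 and 6 h removed none, and the cap of 150 contigs in the rule was not reached. The gap between the early and the late libraries is therefore a description of how the contigs were chosen and is given without a test.

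The series has 10 RNA-seq libraries labelled pearl sac, 1 each at 0, 2, 6, 12, 24, 48 and 96 h and 7, 14 and 30 d after implantation. The mussels were 2 years old with shells of 9 to 10 cm, and no strain, genotype or further treatment is given. Whether a library is 1 mussel or a pool is not in the labels, nor which tissue stood for the sac at 0 h, so time cannot be told apart from differences between animals or from the sampled tissue. Contigs carry no gene names here, so neither the tissue nor its cell types could be checked against markers, and a contig may be only a piece of a transcript.

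A pearl sac forms when a piece of mantle is grafted into a host mussel: blood cells gather at the wound, the outer epithelium of the graft spreads into a closed pouch, and this pouch secretes nacre. In bulk RNA, fewer cells of a type and less RNA per cell cannot be told apart.

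Library totals ran from 20315910 reads at 96 h to 24069268 at 24 h, so depth differed little, but the spread of reads over contigs changed at the same step as the rule. The number of most abundant contigs that held 50% of the reads was 64 to 77 at 0 to 6 h and 167 to 395 from 12 h on. A CPM value is a share of the library and moves with such a change. TMM, which rescales the libraries on the assumption that most contigs stay level, moved values against 0 h by -0.52, -1.27 and -0.54 log2 units at 12 h, 7 d and 30 d. The main results are therefore set beside the same value for the eligible contigs, and values are from total counts unless TMM is named. The part of read concentration in the drop was not tested.

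The contigs fell in steps and came part of the way back. Throughout, levels are listed in order of time, first for 0, 2 and 6 h and then for the 7 late libraries of 12, 24, 48 and 96 h and 7, 14 and 30 d. Their median was 50.4, 46.5 and 40.3 CPM in the early libraries. In the late libraries it was 15.2, 9.85, 7.43, 7.33, 6.04, 8.66 and 14.7 CPM. The 30 d median thus lay next to that of 12 h and well under those of 0 to 6 h. On the log2(CPM + 1) scale the median change from 0 h was -0.23 at 6 h, and for 12 h, 7 d and 30 d it was -1.26, -2.70 and -1.37. With total counts the median eligible contig did not fall at the late times and stood at 0.02, 0.76 and 0.22 at the same 3 times. Under TMM the median change of the 49 contigs was -1.75, -3.76 and -1.88 at these times, and that of the eligible contigs was -0.47, -0.45 and -0.30. Relative to the eligible median, the median of the 49 contigs stood at -1.28, -3.46 and -1.58 log2 units before TMM scaling. After it, these distances were -1.27, -3.31 and -1.58. TMM multiplies all contigs of a library by the same factor, so both medians move almost equally. The likeness of the distances is therefore built in and is no check of the drop.

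**Figure D1:**
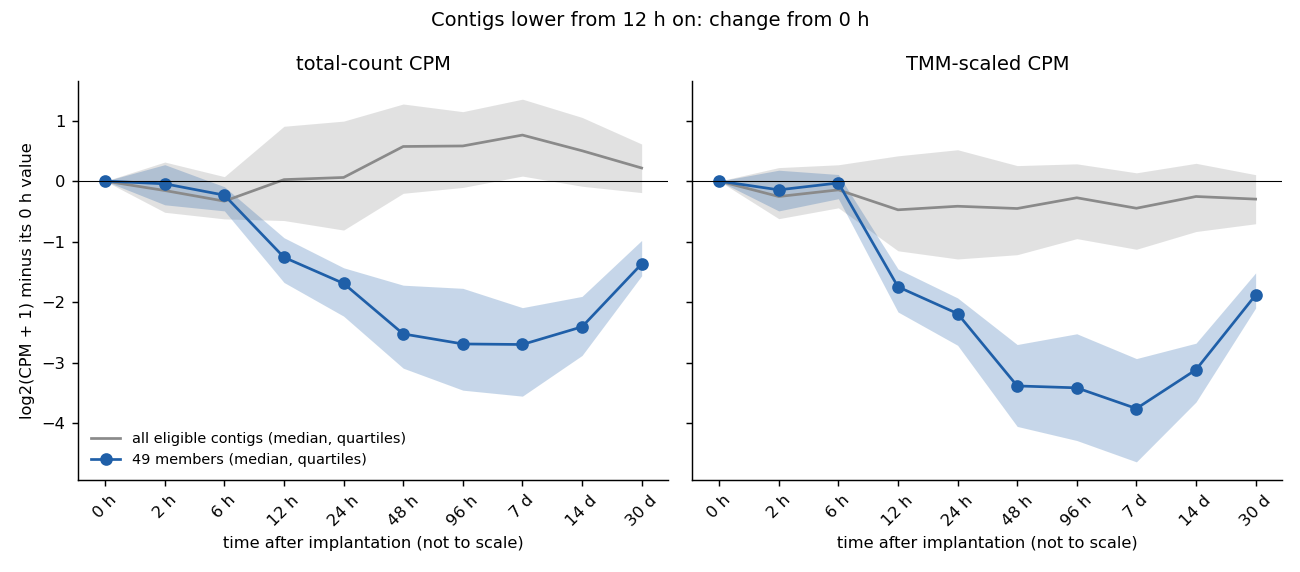
Change of log2(CPM + 1) from 0 h (y axis) at each time (x axis, not to scale) with total-count scaling on the left and TMM on the right. Lines are medians and bands are quartiles over the 49 contigs (blue) and the 6151 eligible contigs (grey). The blue median reaches -2.70 at 7 d on the left and -3.76 on the right and rises again to -1.37 and -1.88 at 30 d.

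None of the 49 contigs was lost in the sense of having no reads. Each had at least 1 read in every library, and the lowest count at 30 d was 36 reads. At 30 d all 49 were above 1 CPM and 35 were at 5 CPM or more. Levels under 1 CPM were seen at some late time in 14 contigs, with between 3 and 8 such contigs in each library from 24 h to 14 d and none at 12 h or 30 d. Together the 49 contigs took 1.53%, 1.37% and 1.18% of all reads in the early libraries. In the late ones their share was 0.660%, 0.553%, 0.223%, 0.156%, 0.117%, 0.181% and 0.531%. A name such as "lost for good" would overstate these values: the contigs stood lower at all late times, most of all from 48 h to 14 d, and were measurable throughout.

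The size of the gap itself was modest for most contigs. The score ran from 0.51 to 1.48 with a median of 0.66, which is a ratio of 1.58 between the lowest early and the highest late CPM + 1 value, and 7 contigs had a score above 1. In the contig just inside the limit the lowest early value was 5.90 CPM and the highest late value 3.86 CPM, with a score of 0.51. In the contig just outside they were 669 and 476 CPM, with a score of 0.49. A score above 0 was found in 204 eligible contigs.

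The depth of the trough varied far more than the score. Between the lowest early library and the lowest late library the CPM ratio ran from 3.14 to 464, with a median of 11.1. It was at least 4 in 46 contigs, at least 16 in 15 and at least 64 in 8. At 12 h, 36 contigs were at least 2-fold under their 0 h CPM and 7 at least 4-fold (16.1% and 2.88% of the eligible). At 7 d the numbers were 48 and 38 (9.8% and 4.76%), and at 30 d they were 37 and 9 (5.28% and 0.602%). With TMM all 49 were at least 2-fold under 0 h at each of these times (32.4%, 30.2% and 15.4% of the eligible), and 20, 49 and 23 at least 4-fold (7.12%, 11.9% and 1.92%). The rule used these contrasts, so the counts only describe the chosen contigs. The lowest late library was 7 d in 19 contigs (3.89% of the eligible), 14 d in 12 (13.7%) and 96 h in 9 (7.61%). It was 48 h in 5 (5.38%), 24 h in 3 (24.2%), 12 h in 1 (21.8%) and 30 d in none (23.5%). With TMM it was 7 d in 26 contigs (12.8% of the eligible), 48 h, 96 h and 14 d in 7 each (12.9%, 7.77% and 16.3%), 24 h in 2 (16.8%), and 12 h and 30 d in none (17.0% and 16.4%).

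**Figure D2:**
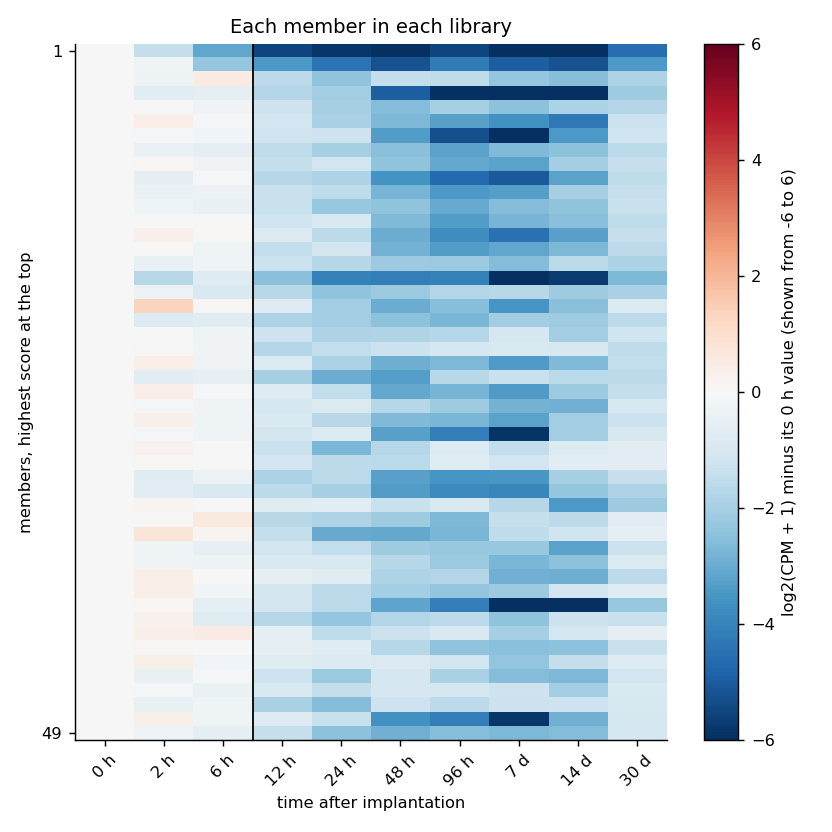
Change of log2(CPM + 1) from 0 h (colour, shown from -6 to 6) for each of the 49 contigs (rows, highest score at the top) in each library (columns, the black line parts 6 h from 12 h). The right of the line is blue in all rows, most of the darkest cells lie between 48 h and 14 d, and the 30 d column is lighter, with a median of -1.37 against -2.70 at 7 d.

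The 2 contigs with the highest score had begun to fall before 12 h. contig165508 (1414 bases) had early levels of 282, 105 and 31.8 CPM. Its late levels were 5.22, 4.03, 1.44, 5.27, 1.15, 0.229 and 10.8 CPM. Its CPM was 8.88-fold lower at 6 h than at 0 h (exact 95% counting interval 8.21 to 9.62), 1231-fold lower at 14 d (527 to 3792, from 5 reads) and 26.1-fold lower at 30 d (22.9 to 30.0). Such intervals cover counting error only, since no time had a replicate and PCR copies are not independent molecules. The level fell at each step to 48 h, and the 30 d value was above that of every library from 12 h to 14 d. contig022721 (196 bases) had early levels of 41.2, 35.1 and 7.42 CPM. Late, it stood at 2.85, 0.956, 0.139, 1.33, 0.369, 0.137 and 2.82 CPM, lowest at 48 h and 14 d. Only 3 reads stood behind each of the 48 h and 14 d values, so the ratio to 0 h was loose there, 296-fold lower at 48 h (101 to 1436). At 30 d the contig was 14.6-fold lower than at 0 h (11.2 to 19.3). Its 30 d and 12 h values differed by less than counting error, with a ratio of 0.991 (0.680 to 1.44).

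Most contigs varied little before 12 h. Across 0, 2 and 6 h the median distance between the highest and the lowest level of a contig was 0.49 log2(CPM + 1) units, against 0.70 in the eligible contigs. The rule favours a small distance here, since it works from the lowest early level. The lowest of the 3 early libraries was 6 h in 31 of the 49 contigs (63.3%) with total counts, against 49.9% of the eligible contigs. With TMM it was 6 h in 10 of the 49, against 27.9% of the eligible, so an early decline is not seen under both scalings.

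The most abundant of the 49 contigs, chosen after its values were seen, had the largest ratio between its lowest early and its lowest late CPM, 464. This contig of 2084 bases stood at 3115, 1934 and 2097 CPM early. The late values were 932, 741, 101, 39.5, 5.03, 4.17 and 713 CPM. At 30 d it had come back close to its 12 h and 24 h values from 4.17 CPM at 14 d. It made up 20.4% of the summed CPM of the 49 contigs at 0 h, and the 5 most abundant made up 60.6%, so the summed values mainly follow a few contigs. Without this contig the sum was 12177 CPM at 0 h, 922 at 7 d and 4601 at 30 d.

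By level at 0 h, 16 contigs lay under 20 CPM, 19 between 20 and 200 CPM and 14 at 200 CPM or more. Their share rose with level: the 49 were 0.494% of the eligible contigs under 20 CPM, 0.748% of those between, and 3.76% of the 372 at 200 CPM or more. The rule itself favours such a rise. A contig that exceeds the limit on the mean at 0 h is eligible only if it lies lower in other libraries. The added 1 CPM also makes the required score harder to reach at low levels. How much of the rise comes from these limits was not tested. From the low to the abundant class, the median change from 0 h on the log2(CPM + 1) scale was -1.41, -1.32 and -1.10 at 12 h, where the eligible contigs of these classes had 0.28, -0.17 and -0.40. At 7 d it was -2.24, -3.32 and -3.95, against 0.95, 0.61 and -0.01 in the eligible contigs. At 30 d it was -1.28, -1.40 and -1.32, against 0.34, 0.11 and -0.15. The added 1 CPM makes changes of the lowest class look smaller than they are in CPM, where the class medians were 10.6 CPM at 0 h, 1.50 at 7 d and 3.79 at 30 d for the low class and 813, 26.7 and 373 for the abundant class.

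Length did not enter the rule. The 49 contigs had a median length of 1688 bases (173 to 8517), while the eligible contigs had a median of 2832. Contigs under 1000 bases made up 16 of the 49 (32.7%) and 12.0% of the eligible contigs. The short ones had a median of 152 CPM at 0 h against 39.3 CPM for the 33 longer ones. Per length, the median level at 0 h was 29.2 RPKM (CPM divided by the contig's length in kilobases), between 2.55 and 6648, against 7.29 RPKM in the eligible contigs. At 7 d the median was 2.99 RPKM against 12.1, and at 30 d it was 11.8 against 8.63, so per length the set was back above the eligible median at 30 d. On the log2(CPM + 1) scale the short and the longer contigs had median changes from 0 h of -3.12 and -2.62 at 7 d, and of -1.35 and -1.37 at 30 d.

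Some of the 49 contigs had nearly the same course. Of 1176 pairs, 16 stayed within 0.5 log2 units of each other in every library once each contig's own mean was removed. The closest pair had lengths of 3019 and 3046 bases and differed by at most 0.18 log2 units, and another close pair of 2102 and 2085 bases differed by at most 0.35. The median over all pairs of the largest difference was 1.57. The rule chose contigs that share a drop after 6 h, so likeness of course is partly built in. Pairs of eligible contigs were not compared, so the 16 pairs have no share to be set beside. The files do not show whether any of the 49 contigs are copies or pieces of 1 gene, so they may stand for fewer genes.

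Whether the gap is seen in a library that did not choose the contigs was asked by leaving each library out of the rule in turn. For a late library, a contig counted when it lay under its lowest early level there, and for an early library when it lay above its highest late level. Without 30 d the rule chose 97 contigs, of which 71 (73.2%) were lower at 30 d, against 12.9% of all eligible contigs. Without 12 h it chose 103, of which 86.4% were lower at 12 h, against 26.2%. Of those chosen without 24 h, 93.5% were lower at 24 h, against 30.7% of the eligible. The 4 libraries between 48 h and 14 d added least to the choice: all 49 contigs chosen without 48 h were lower there (18.6% of the eligible), as were 98.0% of 51 for 96 h (17.2%), all 52 for 7 d (13.4%) and all 49 for 14 d (16.1%). The early libraries differed among themselves. Of 71 contigs chosen without 2 h, 95.8% were higher there (8.33% of the eligible), of 125 chosen without 6 h 77.6% (5.45%), and of 128 chosen without 0 h 57.0% (7.71%). Without 0 h the condition on a rise at 2 and 6 h cannot be applied, so these 128 met a looser rule. The number chosen thus hung most on the 0, 6 and 12 h and 30 d libraries. When a margin of 0.5 was asked in these left-out libraries too, their shares were 39.1%, 40%, 47.6% and 50.5%. The eligible shares were then 3.17%, 2.22%, 8.67% and 5.33%. With TMM and no margin the shares in these 4 libraries were 69.5%, 91.9%, 96.2% and 79.1%. Those of the eligible contigs were higher than with total counts, at 27.0%, 20.7%, 48.8% and 36.2%.

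**Figure D3:**
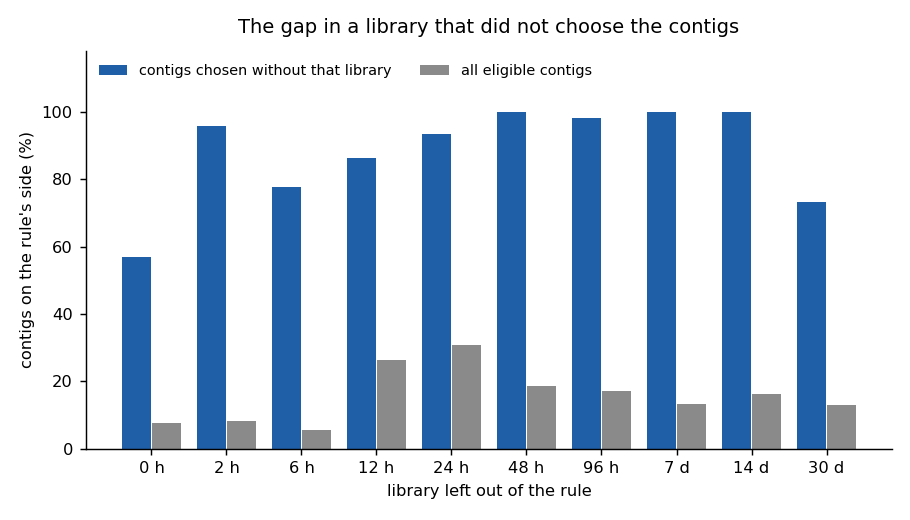
Share of contigs on the rule's side (y axis, percent) in a library that was left out of the rule (x axis), for the contigs chosen without it (blue, 49 to 128 contigs) and for all eligible contigs (grey). The blue bars stand at 100% at 48 h, 7 d and 14 d, at 73.2% at 30 d and at 57.0% at 0 h, and the grey bars stay at 30.7% or less. Scaling is by total counts, with no margin asked in the left-out library.

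How lasting a drop seen by 96 h was could be read from the 3 last libraries. Leaving out 7, 14 and 30 d together, and without the cap of 150, the rule chose a wider set that held 47 of the 49 contigs. Of this set, 155 contigs (92.3%) lay under their lowest early level at 7 d, against 13.4% of the eligible contigs. At 14 d the shares were 77.4% and 16.1%, and at 30 d they were 54.8% and 12.8%. All 3 libraries were lower in 85 contigs (50.6%), against 5.64% of the eligible. The set's median change from 0 h was -2.25 log2(CPM + 1) units at 96 h. In the last 3 libraries it was -1.72, -1.34 and -0.64, against 0.76, 0.50 and 0.22 in the eligible contigs. Of the set, 17 contigs lay above their highest early level at 30 d, a count not made for the eligible contigs. With TMM, 811 contigs met these limits, again without the cap, of which 54.4% were lower in all 3, against 17.0% of the eligible.

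The 49 contigs can be set beside those that fell in the same way and came back. Taking only the libraries to 7 d as late, 132 contigs had a gap above 0.5. Of these, 49 (37.1%) kept it at 14 and 30 d, 56 (42.4%) reached their lowest early level again at 14 or 30 d, and 27 lay between. The regain was at 30 d in 54 of the 56 and at 14 d in 17. On the log2(CPM + 1) scale the regained contigs had median changes from 0 h of -0.44 and -0.54 at 2 and 6 h, against -0.04 and -0.23 in the 49. At 12, 24, 48 and 96 h they had -1.53, -2.01, -2.16 and -2.48, against -1.26, -1.69, -2.52 and -2.69. For 7, 14 and 30 d the values were -2.05, -0.97 and -0.18, against -2.70, -2.41 and -1.37. By these medians the regained contigs were the lower set to 24 h and the higher set from 48 h on. The split between the groups at 14 and 30 d is made by the rule and is no result. Regain was judged against the lowest early level, so a dip at 2 or 6 h makes it easier to reach. The rule also bounds the levels from 12 h to 7 d in both groups. Their differences at the other times therefore only describe the chosen contigs. With TMM, 744 contigs fell to 7 d in this sense, of which 39.2% kept the gap and 41.3% regained.

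The mirrored rule, which asks for a level at least 0.5 log2 units higher in each late library than in each early one and at least 5 CPM at all late times, was met by 286 of 6709 contigs (4.26%) with total counts. That is more than the 0.797% with a lasting drop. With TMM and no cap the order turned: 10 of 6309 contigs (0.159%) were raised and 292 of 8138 (3.59%) were lower. Which direction was the more frequent therefore depends on the scaling. Under TMM the lowest score of the 49 contigs was 0.89 and the median was 1.28. Of the 49, 47 were again chosen, the other 2 being over the limit of a mean of 1000 CPM. TMM moved the late libraries by -0.50 to -1.27 log2 units against 0 h, and those of 2 and 6 h by -0.10 and 0.20. Higher scores of the 49 were therefore built in, and keeping them is no check of the choice. With the cap of 150, 103 of the contigs chosen under TMM were not among the 49.

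The order of the 7 late libraries did not enter the rule, which takes only their highest value. The rule still bounds every late level from above, and the highest one lay at 12 h in 23 of the 49 and at 30 d in 13. Slopes of the 49 are therefore not independent of the rule. The counts that follow only describe them beside contigs that have no such bound. A straight slope on log2(hours + 1) from 12 h to 30 d was fitted to all contigs with edgeR's quasi-likelihood test, with TMM scaling and Benjamini-Hochberg adjustment over 50263 contigs. None of the 49 contigs passed a threshold of 0.05 in either direction (lowest adjusted p = 0.0771), while 7.64% of all contigs tested passed as falling and 7.5% as rising, and 4.13% and 5.9% of the eligible contigs. On simulated counts the test recovered 1.49% of 4-fold and 67.2% of 16-fold changes, so passing none does not show that late levels were flat. In the TMM fit 2 of the 49 had an unadjusted p under 0.05, against 33.7% of all contigs. With total counts, again none of the 49 passed, against 3.37% and 4.17% of all contigs. DESeq2's likelihood ratio test called 1 of the 49, as falling, against 11.0% of all contigs, and limma on log2(RPKM + 1) none, against 7.58% in either direction. The slope was negative in 34 and positive in 15 of the 49. The ends of the period pull it both ways: without the 30 d library 12 of the 49 passed as falling (8.7% of all contigs), and without the 12 h library 1 passed as rising (5.85%).

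The contigs with the lowest p of the late slope in each direction show the range of courses. contig304157 (3738 bases) was at 50.4, 56.4 and 49.5 CPM at 0, 2 and 6 h. Its late levels were 29.7, 31.9, 19.3, 26.3, 14.7, 3.76 and 10.4 CPM, with a slope of -0.36 ± 0.13 (SE) log2 units per unit of log2(hours + 1) and adjusted p = 0.0771 in edgeR's test. Its lowest value was at 14 d. contig176016 (255 bases) had 6.96, 9.58 and 7.19 CPM early and 4.35, 3.82, 1.21, 1.33, 0.0923, 0.0458 and 1.69 CPM late, with 2 reads at 7 d and 1 read at 14 d. It had a slope of -0.39 ± 0.23 and adjusted p = 0.269 in edgeR's test. Its lowest values lay at 7 and 14 d.

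The other pair had its lowest point early. contig088898 (1207 bases) had 7.63, 5.29 and 6.13 CPM early and 1.26, 0.415, 2.65, 1.92, 2.54, 2.61 and 3.39 CPM late, with a slope of 0.31 ± 0.11 and adjusted p = 0.0921 in edgeR's test. contig093070 (2118 bases) had 39.3, 47.2 and 40.3 CPM early and 15.2, 4.99, 11.5, 21.7, 13.4, 21.5 and 25.0 CPM late, with a slope of 0.21 ± 0.11 and adjusted p = 0.227 in edgeR's test. Both were lowest at 24 h and highest, among the late libraries, at 30 d.

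**Figure D4:**
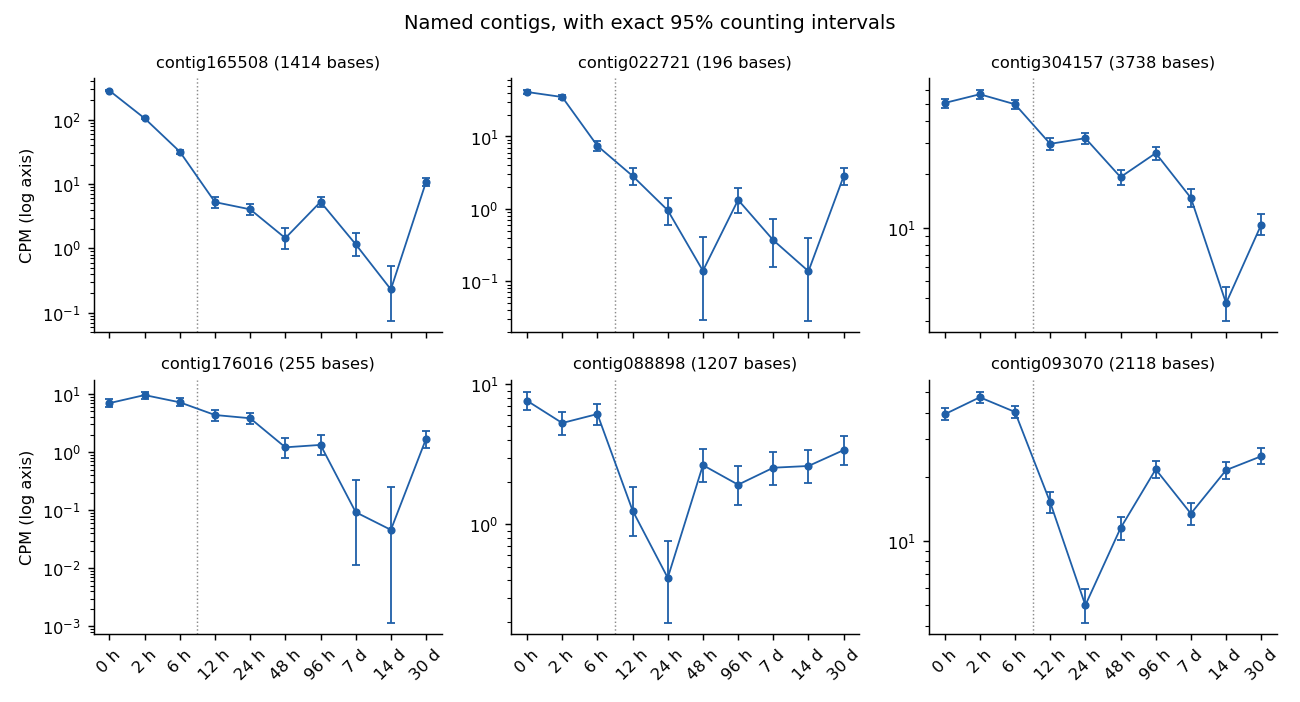
CPM (y axis, log scale, different in each panel) of the 6 named contigs at each time (x axis), with exact 95% counting intervals from the reads of each library. The dotted line parts 6 h from 12 h. contig165508 and contig022721 fall from 282 and 41.2 CPM at 0 h to 0.229 and 0.137 at 14 d, while contig088898 and contig093070 are lowest at 24 h.

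A slope cannot follow a fall and a return, so a curve with a linear and a quadratic term was fitted jointly in the same way over the 7 late libraries. It was added because the fall and return had been seen in these libraries, so its counts describe that shape and give it no independent support. The contigs set beside the 49 have no bound on their late levels. The test takes both terms together, so passing means a change over time of any form. Opening upward or downward is only the sign of the quadratic term, which was not tested on its own. A contig with a steady trend can therefore pass under either name. In edgeR's test 25 of the 49 contigs (51.0%) passed with a curve that opens upward, against 14.3% of all 57404 contigs tested and 16.7% of the eligible contigs. None passed with a curve that opens downward, as 8.25% of all contigs and 5.72% of the eligible did. The fitted curve opened upward in 48 of the 49 and in 46.5% of all contigs, and with total counts in 46 of the 49 and in 26.6%. In the 25 the fitted turning point lay between 63.6 and 150 h, with a median of 112 h. With total counts 22 of the 49 passed, as opening upward, against 8.94% of all contigs and 11.5% of the eligible, and none as opening downward, against 13.6% and 14.1%. With TMM the number was 11 without 96 h (10.4% of the eligible), 13 without 48 h (10.3%) and 14 without 7 d (12.2%). It was 26 without 12 h (12.1%), 22 without 24 h (11.9%), and 24 without 14 d or without 30 d (18.8% and 17.7%). The spread in this test is the scatter of single libraries about the curve, with 4 residual degrees of freedom.

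The 2 ends of the late period are the libraries that most often set the rule's upper bound: the highest late level was at 12 h in 23 of the 49 contigs and at 30 d in 13. The eligible contigs have no such bound, so the counts that follow only describe the chosen contigs. At 30 d, 28 of the 49 contigs were below and 21 above their 12 h level. With 1 CPM added, 2 were at least 2-fold lower at 30 d than at 12 h and 1 at least 2-fold higher, while 15.8% and 16.6% of the eligible contigs were. With TMM 3 were lower and 1 higher, against 16.1% and 16.2%. The median difference was -0.05 log2 units for the 49 and 0.11 for the eligible contigs, from 2 libraries without a replicate. Against 7 d, a comparison added because the return had been seen, 33 of the 49 (67.3%) were at least 2-fold higher at 30 d and none was 2-fold lower, while 10.7% of the eligible contigs were higher and 27.8% lower. The median difference was 1.46 log2 units for the 49 and -0.55 for the eligible. With TMM 41 of the 49 were at least 2-fold higher at 30 d, against 19.1% of the eligible, and none was 2-fold lower, against 6.5%. The median was 1.80 against 0.15.

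**Figure D5:**
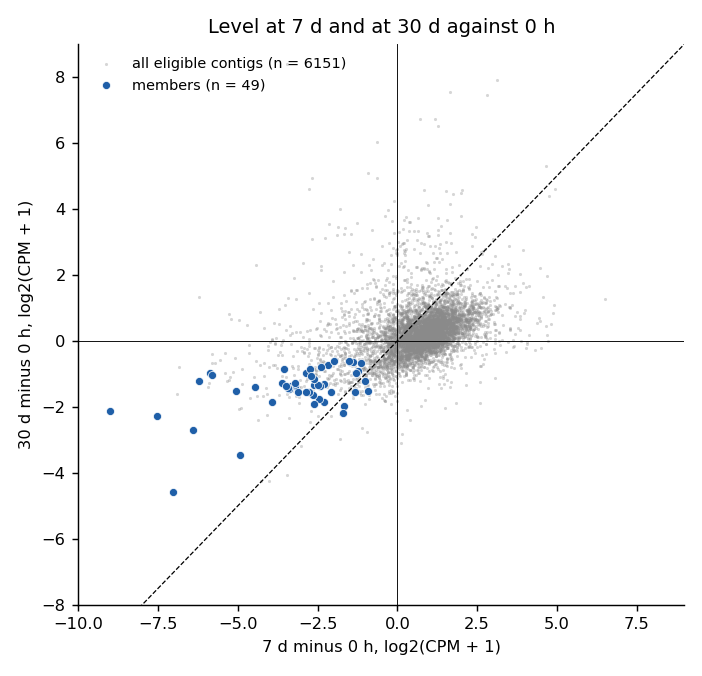
Change of log2(CPM + 1) from 0 h at 7 d (x axis) and at 30 d (y axis) for the 49 contigs (blue) and the 6151 eligible contigs (grey), with total-count scaling. On the dashed line both changes are equal. Of the 49 contigs, 44 lie above it, so they were higher at 30 d than at 7 d, and all 49 lie below 0 on both axes, as the rule requires.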

How the data were processed

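The authors deposited 1 file per library with a reads column and an RPKM column per contig, per the file headers. No assembler, aligner or counting program is named in the labels or headers. Per the labels' protocols, libraries came from purified mRNA with random primers and PCR, with no molecular identifiers or strand-marking step named. The reads entered as deposited: values are whole except 0.5, which stands only beside an RPKM of 0 and was read as 0. Whether they are raw or rounded expected counts is not named either. RPKM values deposited by the authors, with reads and totals, gave contig lengths. In the 30 d file 1 damaged line replaces 166 contigs (0.105% of the reads), which were left out everywhere, and the 30 d total is that of the readable contigs.

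CPM used each file's summed reads. TMM factors and the quasi-likelihood tests came from edgeR 4.0.16 (R 4.3.3, filterByExpr), alternatives from DESeq2 1.42.0 and limma 3.58.1, ratios with exact counting intervals from scipy 1.17.1. On simulated counts, the slope test over 47103 contigs recovered 1.49%, 67.2% and 92.4% of changes of 4-fold, 16-fold and 64-fold with 9 false calls, and the curve test over 49081 contigs recovered 0%, 59.7% and 93.9% with 13. The floor for a count of 0 (3 reads) was not needed. The contigs named are the 2 with the highest score and, for each direction, the 2 with the lowest p of the late slope. The members, the rule and the tests were chosen with earlier results of these data known. No gene list was used, because contigs have no names in the files, and no contig sequence was given.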

Additional observations from a re-analysis of the deposited data

How the results depend on the processing

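No paired analysis was possible because each time has 1 library and the labels give no replicate numbers. The 49 contigs numbered 292 with TMM and no cap (47 of the 49 among them) and 31 with a minimum of 20 CPM at 0, 2 and 6 h, and 49 to 128 over the single libraries left out, with at least 48 of the 49 kept each time. Without 0 h, and so without the condition on a rise at 2 and 6 h, there were 128. There were 125 without 6 h, 103 without 12 h and 97 without 30 d. They numbered 36 with log2(CPM + 5), 56 with log2(CPM + 0.1), 69 with a minimum of 1 CPM and 60 with no limit on the mean. The 7609 contigs with a late slope numbered 15070 with no filter, 3790 with total counts and 3812 with limma on log2(RPKM + 1), and 1861 (without 24 h) to 8087 over the left-out times. Of the 49, 0 passed as falling, with 1 under no filter, 1 under DESeq2 and 0 to 12 over the left-out times, and 0 to 1 passed as rising. Contigs at least 2-fold higher at 30 d than at 12 h numbered 1, and 3 and 0 with priors of 0.1 and 5 CPM. The share of 50.6% lower in all of 7, 14 and 30 d fell to 28.0% when a margin of 0.5 was asked there too. The 25 contigs with an upward late curve numbered 11 to 26 over the left-out times. The slopes of the 4 contigs named for it kept their sign in all 52 refits, of which 4 passed the threshold. Without 30 d, contig304157 had adjusted p = 0.0294 and contig176016 0.00854 in edgeR's test, and contig304157 also passed with no filter (0.0442) and with DESeq2 (0.0382). Over all 52 the adjusted p ran from 0.00854 to 0.625 in edgeR, DESeq2 and limma. Causes were not tested. Depth limits the trough values most, where a few reads stand behind the lowest levels.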

Other observations

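The limit on the mean left out 11 contigs with a mean of 1000 CPM or more that otherwise met the rule. Their median was 7805 CPM at 0 h, 223 at 7 d and 2797 at 30 d. No share or median of all contigs with such a mean is given beside them, so these values only describe the 11. Of the 166 contigs on the damaged line of the 30 d file, 7 met the limits on level in the other 9 libraries, and none of these had a score above 0.5 there.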
